A study of Homo sapiens with 6 samples.

Results

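The genes described here are 10 genes tied to NRF2, the transcription factor of the antioxidant response, and to the aldo-keto reductases: AKR1B10, AKR1C1, AKR1C2, AKR1C3, NQO1, HMOX1, GCLM, GCLC, TXNRD1 and NFE2L2, which encodes NRF2 itself. They were chosen by symbol, and 19 of the 47231 probes on the array carried one of these symbols, each gene having between 1 and 6. Of these 19 probes, 12 were bright enough to be tested (detection p below 0.05 on at least 3 of the 6 arrays), and they covered 9 of the 10 genes. AKR1C1 was the gene without a tested probe. The arrays were made from U251, an established human glioblastoma line, grown in serum. The shCypB cells (3 arrays) had received a lentiviral pLKO1.5 vector with an shRNA against cyclophilin B, the product of PPIB, and the shCON cells (3 arrays) the same kind of vector with a non-target shRNA. RNA of both groups was taken 5 days after transduction, and the labels call the arrays of a group biological replicates without saying how the cultures were kept apart, so p-values measure the spread between these samples. The labels name 1 shRNA against cyclophilin B, so loss of the protein and other effects of that shRNA cannot be told apart.

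NRF2 is held low in unstressed cells by KEAP1, which hands it to a CUL3 ubiquitin ligase for degradation. When oxidants or electrophiles modify KEAP1, NRF2 builds up, pairs with a small MAF protein and binds antioxidant response elements near genes of glutathione synthesis, quinone and carbonyl reduction, thioredoxin recycling, haem breakdown, NADPH supply and drug export. Because NRF2 is governed largely at the protein level, its mRNA and its activity need not move together. The aldo-keto reductases use NADPH to turn aldehydes and ketones, among them lipid peroxidation products, retinal, steroids and prostaglandins, into alcohols, and several are classical NRF2 targets in human cells.

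Promoter sequences of RefSeq (GRCh38.p14, 250 bases before to 50 after a transcript start) were listed for 8 of the 10 genes, and not for AKR1B10 and HMOX1. Those of AKR1C1 and AKR1C2 are shown because these neighbouring paralogs on chromosome 10 are so alike, and those of GCLC and GCLM because the 2 subunits of one enzyme had different values. Capitals mark matches to the antioxidant response element core TGACNNNGC or to its variant TGAGNNNGC on either strand, where N is any base. The 2 forms differ at the fourth letter and cannot match at the same place on one strand, and both begin like an AP-1 site.
AKR1C1 promoter, chr10:4963165-4963464, plus strand: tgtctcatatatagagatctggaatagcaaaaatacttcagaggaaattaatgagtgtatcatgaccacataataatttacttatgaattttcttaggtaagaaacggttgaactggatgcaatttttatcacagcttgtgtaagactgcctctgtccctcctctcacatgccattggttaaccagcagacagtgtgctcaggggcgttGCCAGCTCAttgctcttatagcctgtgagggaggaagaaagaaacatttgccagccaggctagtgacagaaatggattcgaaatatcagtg
AKR1C2 promoter, chr10:5003808-5004107, minus strand: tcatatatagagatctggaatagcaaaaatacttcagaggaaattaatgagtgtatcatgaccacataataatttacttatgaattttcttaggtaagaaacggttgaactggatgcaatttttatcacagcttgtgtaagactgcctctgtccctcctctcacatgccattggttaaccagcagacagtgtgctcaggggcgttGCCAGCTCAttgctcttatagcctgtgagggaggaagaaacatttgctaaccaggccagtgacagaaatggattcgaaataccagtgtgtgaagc
GCLC promoter, chr6:53545052-53545351, minus strand: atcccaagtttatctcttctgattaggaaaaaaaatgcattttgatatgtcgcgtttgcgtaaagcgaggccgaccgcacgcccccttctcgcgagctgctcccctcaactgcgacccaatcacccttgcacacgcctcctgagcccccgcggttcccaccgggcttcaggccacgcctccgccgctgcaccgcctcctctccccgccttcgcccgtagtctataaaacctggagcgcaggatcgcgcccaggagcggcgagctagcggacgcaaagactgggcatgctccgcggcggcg
GCLM promoter, chr1:93909381-93909680, minus strand: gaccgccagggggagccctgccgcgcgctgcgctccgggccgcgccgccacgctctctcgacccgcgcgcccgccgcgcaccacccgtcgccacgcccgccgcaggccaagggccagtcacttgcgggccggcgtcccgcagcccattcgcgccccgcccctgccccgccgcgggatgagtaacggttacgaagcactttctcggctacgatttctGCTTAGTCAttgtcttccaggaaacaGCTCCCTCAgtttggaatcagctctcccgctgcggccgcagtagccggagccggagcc
The AKR1C1 and AKR1C2 promoters were identical at 288 of 292 aligned bases (98.6%), and each held 1 match to the variant, 41 and 45 bases before the start. GCLM held a match to the core that begins 34 bases before its start and a variant match 8 bases before it, and the GCLC window held neither form. Bases outside the windows were not searched, for GCLC or any other gene. At least 1 match lay in a listed promoter of 6 of the 8 genes, the others being NQO1, TXNRD1 and NFE2L2, and in 7 of the 11 listed promoters of the members. Of all 35116 listed promoters 29.1% hold one. The core alone occurs in 13.3% of them and the variant in 18.3%. A match is a description of these letters and was not tested as a binding site.

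In shCypB cells the members moved apart. AKR1B10 fell 4.20-fold and HMOX1 rose 2.76-fold, AKR1C3 was lower and GCLC higher by less than 1.5-fold, and NQO1, GCLM, TXNRD1, AKR1C2 and NFE2L2 did not pass the test. Among the 9 tested genes 2 rose and 2 fell at an adjusted p below 0.05. These 4 of 9 (44.4%) stand beside 43.8% of all 10517 tested genes, of which 23.1% rose and 20.8% fell, so the members were called about as often as genes on this array in general. The median log2 change of the 9 genes was -0.01, and that of all tested genes 0.03. The groups did not overlap for 5 of the 9 genes, against 56.8% of all genes. Counted by probe, 4 of 12 passed (2 higher and 2 lower) and 5 of 12 did not overlap. Beside these, 38.5% of all tested probes were called (20.3% higher and 18.2% lower, 3570 and 3205 probes) and 50.4% did not overlap. The order of higher and lower turned under median scaling (3177 and 3602) and with only probes detected below 0.01 on all arrays (3192 and 3275). All signals below are on the log2 scale after background correction and quantile normalisation, changes are shCypB minus shCON with the standard error and Benjamini-Hochberg adjusted p of limma's fit across all 17608 tested probes, and a signal of one probe is not comparable with that of another. In RNA from whole cultures, fewer cells that express a gene and less RNA of it per cell cannot be told apart.

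**Figure D1:**
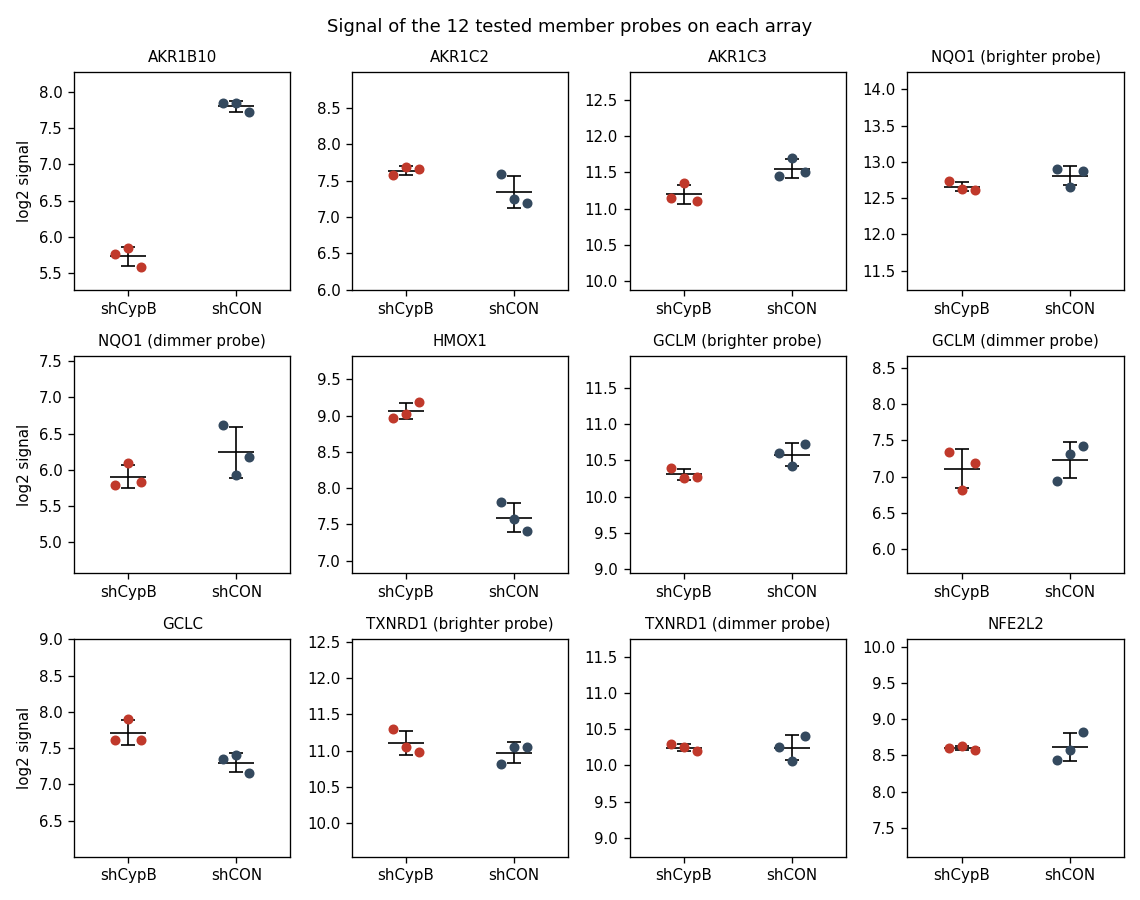
Log2 signal of each of the 12 tested member probes, 1 panel a probe, with 3 shCypB arrays (red) left and 3 shCON arrays (dark) right; each point is an array, bars are the mean and SD, and every panel spans 3 log2 units. AKR1B10 and HMOX1 are the panels where the groups lie more than 1 log2 unit apart.

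The array facts that bear on these values are few. Between 16597 and 18700 probes (35.1% to 39.6%) were detected per array, and log2 signals of 2 arrays correlated at Pearson r 0.987 to 0.994 within a group and 0.957 to 0.965 between groups. PPIB was undetected on all 3 shCypB arrays and detected on all 3 shCON arrays, a fall of at least 1.45-fold, or 1.21-fold without background correction (log2 signal 4.58, 4.44 and 4.81 in shCypB, against 6.05, 5.68 and 5.35 in shCON, adjusted p = 0.0034 by limma). Of 6 glial and glioma markers, 5 were tested. GFAP and NES fell, SOX2 rose, VIM and CD44 did not pass at their brightest probes, and S100B was undetected on all 6 arrays. At their other tested probes VIM was lower (log2 change -0.39, adjusted p = 0.015 by limma) and CD44 higher (0.35, adjusted p = 0.030). The summed signal of this list, on the linear scale, was 33603 to 36149 on the shCypB arrays, against 38111 to 41507 on the shCON arrays. Of 4 leukocyte markers, PTPRC and CD3E were undetected on all 6 arrays, and CD68 and CD14 were detected and did not pass (summed signal 546 to 572 in shCypB, against 536 to 625 in shCON). Of 4 epithelial markers, EPCAM and CDH1 were undetected on all 6 arrays, KRT8 was not tested and KRT18 fell at its brightest probe (198 to 219 in shCypB, against 225 to 231 in shCON). That KRT18 probe was detected on 1 of 3 shCypB arrays, and the other tested one did not pass (log2 change -0.15, adjusted p = 0.67 by limma). Of 5 fibroblast markers, COL1A1 rose 3.30-fold (adjusted p = 0.00026 by limma), COL1A2 and PDGFRB did not pass at their brightest probes, and DCN and LUM were not tested (13725 to 14548 in shCypB, against 15269.5 to 16283 in shCON). The other tested COL1A2 probe was lower (log2 change -0.38, adjusted p = 0.030 by limma). Of 4 liver markers, ALB was tested and did not pass (276 to 311 in shCypB, against 258 to 273 in shCON). Whether these marker shifts have a part in the changes of the members was not tested.

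AKR1B10 reduces retinal and reactive aldehydes and is an intestinal enzyme that many tumours express. It read 5.76, 5.85 and 5.59 on the shCypB arrays, against 7.85, 7.84 and 7.72 on the shCON arrays. Every shCypB array lay far below every shCON array, and the spread within each group was small (SD 0.13 in shCypB and 0.07 in shCON, n = 3 each). The log2 change was -2.07 ± 0.11 (95% confidence interval -2.32 to -1.82, adjusted p = 3.7e-05 by limma), which ranked 46 by size among the 10517 genes. The raw signals before any correction were 108, 114 and 103 in shCypB, against 253, 307 and 207 in shCON, so the separation was there in the deposited values. The shCypB signals were little above the array background, which lay near a median of 75.4 to 82.3, and the size of the fall depends on how that background is treated. Without background correction the log2 change was -1.38, with an offset of 50 it was -1.56, and in the authors' processed values it was -1.40.

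The AKR1C genes, a cluster of steroid and prostaglandin reductases, gave little such movement. AKR1C3, which makes testosterone and prostaglandin F and is the member of the cluster most studied in tumours, read 11.15, 11.35 and 11.11 in shCypB cells. In shCON cells it read 11.46, 11.70 and 11.51. The groups did not overlap, but the gap between the highest shCypB and the lowest shCON array was smaller than the spread within either group. The log2 change was -0.35 ± 0.11 (adjusted p = 0.044), a 1.28-fold fall. In the raw signals the groups overlapped, with 2642, 2709 and 2491 in shCypB, against 2520, 3908 and 2179 in shCON. The call was lost without shCypB replicate 1 (log2 change -0.32, adjusted p = 0.13), shCypB replicate 3 (-0.31, adjusted p = 0.14), shCON replicate 1 (-0.40, adjusted p = 0.054), shCON replicate 2 (-0.28, adjusted p = 0.12) or shCON replicate 3 (-0.37, adjusted p = 0.069). It was also lost without a filter on dim probes (adjusted p = 0.089).

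AKR1C2, which inactivates dihydrotestosterone, had 6 probes, of which 1 was tested. That probe gave 7.57, 7.69 and 7.66 in shCypB, against 7.60, 7.24 and 7.19 in shCON. The groups overlapped through shCON replicate 1, and the log2 change of 0.30 ± 0.13 did not pass (95% confidence interval -0.003 to 0.59, adjusted p = 0.11 by limma), although without shCON replicate 1 it was 0.42 (adjusted p = 0.024). Of the other 5 probes, 4 were undetected on all 6 arrays and 1 was detected on 1 shCypB array only. AKR1C1, which inactivates progesterone, had 1 probe, undetected on all 6 arrays with a detection p of 0.85 or higher, so no change is given for it. Whether the AKR1C probes read only the gene they are named for was not tested. The likeness of the promoters above does not answer this, because no probe or transcript sequence was compared. Within each array, the AKR1C3 signal minus that of AKR1C2 was 3.57, 3.66 and 3.45 in shCypB, against 3.86, 4.46 and 4.31 in shCON. This difference was smaller on every shCypB array than on any shCON array, although AKR1C2 by itself did not pass. The means of this difference were 3.56 ± 0.11 and 4.21 ± 0.31 (SD, n = 3 each), with an exact permutation p = 0.1, two-sided, the smallest that 3 arrays against 3 allow.

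HMOX1, haem oxygenase, splits haem into biliverdin, iron and carbon monoxide and is also induced by haem itself through release of the repressor BACH1. Its log2 signal was 8.97, 9.03 and 9.18 on the shCypB arrays, against 7.80, 7.57 and 7.40 on the shCON arrays. The groups were more than 1 log2 unit apart at their nearest arrays. The log2 change was 1.47 ± 0.13 (95% confidence interval 1.17 to 1.76, adjusted p = 0.00021 by limma) and ranked 221 by size among all genes. Raw signals were 628, 589 and 690 in shCypB, against 247, 263 and 178 in shCON. The change stayed between 1.25 and 1.57 under 14 alternatives and passed in all of them, and so did that of AKR1B10.

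HMOX1 rose while AKR1B10 fell, and the difference between their log2 signals within an array averaged 3.33 ± 0.23 in shCypB, against -0.21 ± 0.14 in shCON (SD, n = 3 each, exact permutation p = 0.1, the smallest possible). A second contrast sets HMOX1 beside BLVRB. BLVRB reduces flavins and some forms of biliverdin with NADPH. Its log2 signal was 7.97, 8.02 and 8.01 in shCypB, against 9.38, 9.31 and 9.28 in shCON. It fell 2.51-fold (log2 change -1.33 ± 0.09, adjusted p = 8.0e-05), whereas the other biliverdin reductase gene, BLVRA, did not pass (log2 change -0.03, adjusted p = 0.85). HMOX1 minus BLVRB averaged 1.06 ± 0.10 in shCypB, against -1.73 ± 0.15 in shCON (SD, n = 3 each, exact permutation p = 0.1). These are 2 of 4 such within-array differences computed, and the adjusted p of each was 0.1. HMOX1, AKR1B10 and BLVRB each kept the groups apart alone, HMOX1 upward and the others downward. Both differences therefore had to separate the groups, and their p adds no support beyond the single genes. The genes of these pairs come from members and lists chosen with earlier results of these data known.

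NQO1, which reduces quinones in a single step that spares the cell reactive semiquinones, is the most used marker gene of NRF2 activity. At its brighter probe it had 12.73, 12.62 and 12.62 in shCypB, against 12.90, 12.65 and 12.87 in shCON. The groups overlapped, and the log2 change of -0.15 ± 0.10 did not pass (95% confidence interval -0.39 to 0.09, adjusted p = 0.31 by limma). The dimmer probe had 5.79, 6.10 and 5.83 in shCypB, against 6.62, 5.93 and 6.17 in shCON, which also overlapped (log2 change -0.33 ± 0.18, adjusted p = 0.19). The interval of the brighter probe leaves room for a fall of up to 1.31-fold and excludes a fall of the size seen in AKR1B10.

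Glutathione synthesis begins with glutamate-cysteine ligase, made of the catalytic subunit GCLC and the modifier subunit GCLM, which raises the enzyme's affinity for glutamate. GCLC had 7.61, 7.91 and 7.62 in shCypB, against 7.35, 7.40 and 7.15 in shCON, and the groups did not overlap. It rose 1.33-fold (log2 change 0.41 ± 0.12, adjusted p = 0.033 by limma). Its second probe was undetected on all 6 arrays. The call of GCLC was lost without shCypB replicate 1 (0.46, adjusted p = 0.055), shCypB replicate 2 (0.31, adjusted p = 0.096), shCypB replicate 3 (0.46, adjusted p = 0.056), shCON replicate 1 (0.43, adjusted p = 0.060) or shCON replicate 3 (0.34, adjusted p = 0.087), and without a filter on dim probes (adjusted p = 0.071).

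GCLM had 10.40, 10.25 and 10.27 at its brighter probe in shCypB, against 10.60, 10.42 and 10.72 in shCON. All shCypB arrays lay below all shCON arrays by a narrow gap, but the log2 change of -0.27 ± 0.11 did not pass (adjusted p = 0.092), and it did pass without shCON replicate 2 (-0.35, adjusted p = 0.0499), without background correction (adjusted p = 0.044) and with only probes detected below 0.01 on all arrays (adjusted p = 0.047). Its dimmer probe, at 7.34, 6.81 and 7.18 in shCypB, against 6.94, 7.32 and 7.42 in shCON, overlapped (log2 change -0.11 ± 0.18, adjusted p = 0.65). GCLC minus the brighter GCLM probe within an array averaged -2.59 ± 0.22 in shCypB, against -3.28 ± 0.28 in shCON (SD, n = 3 each). These means lay 0.68 apart with no overlap between groups and an exact permutation p = 0.1, the smallest possible. GCLC and the brighter GCLM probe each kept the groups apart alone, in opposite directions, so this separation and its p followed from them. With the dimmer GCLM probe in place of the brighter the groups overlapped.

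TXNRD1 encodes the cytosolic thioredoxin reductase, a selenoenzyme that keeps thioredoxin reduced. Its brighter probe read 11.30, 11.05 and 10.99 in shCypB, against 10.81, 11.06 and 11.05 in shCON, and its dimmer probe 10.29, 10.25 and 10.20 in shCypB, against 10.26, 10.06 and 10.41 in shCON. Both overlapped, and neither passed (log2 changes 0.14 ± 0.12, adjusted p = 0.42, and 0.00 ± 0.11, adjusted p = 0.99, by limma). NFE2L2 read 8.61, 8.63 and 8.57 in shCypB, with almost no spread, against 8.43, 8.58 and 8.82 in shCON. The shCypB values lay inside the range of the shCON values. The log2 change was -0.01 ± 0.12 (95% confidence interval -0.28 to 0.27, adjusted p = 0.97), so a change of the NRF2 mRNA beyond 1.22-fold in either direction lies outside the interval, and the protein was not measured here.

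**Figure D2:**
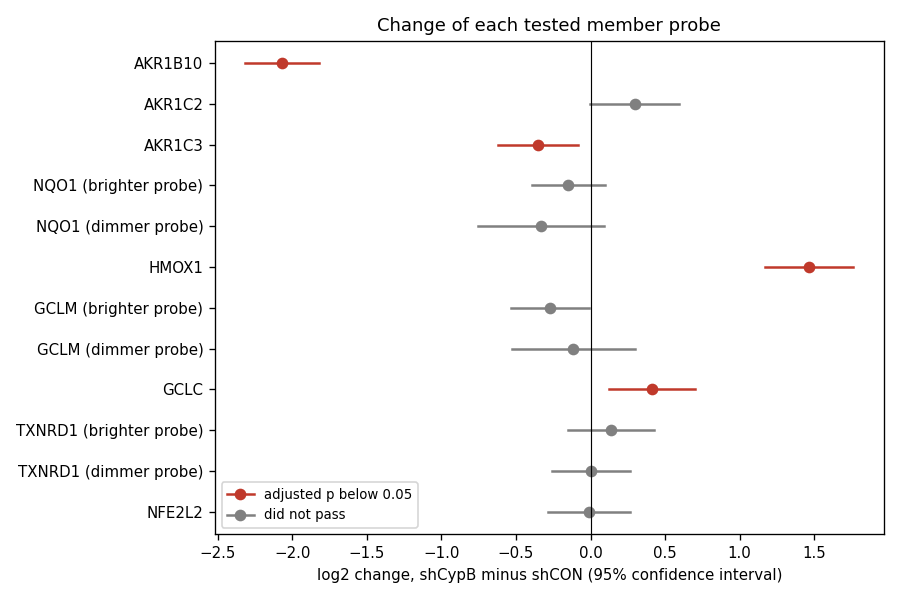
Log2 change (shCypB minus shCON, horizontal axis) of the 12 tested member probes, with 95% confidence intervals from limma; red marks an adjusted p below 0.05 and grey a probe that did not pass. AKR1B10 at -2.07 and HMOX1 at 1.47 stand apart, and the other 10 probes lie between -0.35 and 0.41.

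Beyond the members, 8 lists held 111 genes of the NRF2 pathway and the aldo-keto reductase family, of which 77 were tested. In shCypB cells 28 of the 77 fell, 15 rose and 34 did not pass, so 55.8% were called, beside 43.8% of all genes, and their median log2 change was -0.11. Each list count below stands beside the same shares of all genes, 23.1% higher and 20.8% lower, and the lists were chosen with results of these data known. Of the other aldo-keto reductases 3 of 4 tested fell and 0 rose. AKR7A3, an aflatoxin aldehyde reductase, fell 1.55-fold (log2 change -0.64 ± 0.10, adjusted p = 0.0020) and AKR7A2, of the same subfamily, 1.41-fold (adjusted p = 0.0089). The third, AKR1C4, fell by 0.34 on the log2 scale at its tested probe, like its neighbour AKR1C3. Its other probe was undetected on every array of both groups (detection p from 0.45 to 0.88). Whether the tested probe reads only AKR1C4, and not also its paralogs such as AKR1C3, was not tested. The call of AKR1C4 was lost without any 1 of 5 arrays (adjusted p = 0.065 to 0.12), shCON replicate 3 being the exception. It was also lost without a filter on dim probes (adjusted p = 0.083).

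Quinone and carbonyl detoxification genes were lower for 7 of 12 and higher for 1, with a median log2 change of -0.63. ALDH3A1, an aldehyde dehydrogenase, was detected on all 3 shCON arrays and on 0 shCypB arrays, a fall of at least 2.34-fold (adjusted p = 0.00016), a bound that was 1.57-fold without background correction and 1.62-fold in the authors' processed values. The carbonyl reductase genes CBR3 and CBR1 fell 2.37-fold and 2.05-fold, and the quinone reductase gene NQO2 fell 2.08-fold. Of 19 tested glutathione genes, 9 were lower and 2 higher. The transferase genes GSTA4 (log2 change -1.38 ± 0.11), GSTM4 (-1.19 ± 0.11), GSTM1 (-0.94 ± 0.10) and GSTM3 (-1.54 ± 0.18) fell, each with an adjusted p of 0.00067 or lower by limma. GSTM3 was detected on 1 of 3 shCypB arrays, so the size of its fall is uncertain, and without background correction it was -0.86, with -1.11 for GSTA4 and -0.76 for GSTM4. GSTM paralogs resemble each other closely, and cross-hybridisation of their probes was not tested. In addition, 1 of 3 tested GSTM1 probes went the other way (0.43, undetected in shCON). At the mean of its tested probes the log2 change of GSTM1 was -0.50 (adjusted p = 0.0039 by limma). Of 8 NADPH supply genes 4 fell and 1 rose. PGD, an enzyme of the pentose phosphate pathway, fell 2.23-fold (adjusted p = 0.0022), TKT fell 1.40-fold and MTHFD2 fell 1.39-fold, and IDH1 rose 1.37-fold.

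Of 10 tested genes of the thioredoxin list 2 rose, 1 fell and 7 did not pass, beside 43.8% of all genes called. TXN2, the mitochondrial thioredoxin, fell 1.64-fold (adjusted p = 0.0064). SESN2, undetected on all shCON arrays, rose at least 1.34-fold (adjusted p = 0.014), a call lost without shCypB replicate 1 (0.60, adjusted p = 0.0504) and with median scaling (0.39, adjusted p = 0.19), and its bound was 1.16-fold without background correction. The peroxiredoxin gene PRDX6 rose by 0.31 on the log2 scale (adjusted p = 0.025), and its call was lost without any 1 of the 6 arrays (adjusted p = 0.052 to 0.085). In haem and iron handling 2 of 7 genes rose and 2 fell, with PIR, an iron-binding nuclear protein, 2.01-fold lower beside BLVRB. The haem transporter gene SLC48A1 rose 1.40-fold (adjusted p = 0.0058), but not at its other probe (log2 change -0.10) nor at the mean of both (0.19, adjusted p = 0.20). FECH, the last enzyme of haem synthesis, rose by 0.43 on the log2 scale (adjusted p = 0.018), a call lost without any 1 of 3 arrays, shCypB replicates 1 and 3 and shCON replicate 1 (adjusted p = 0.052 to 0.067). Among 6 exporters and other targets, the organic anion exporter gene ABCC3 fell 4.17-fold and the stress gene NUPR1 2.74-fold, whereas ABCC5, an exporter of cyclic nucleotides, rose 2.77-fold at its brightest probe and 1.67-fold at its other tested probe. NAMPT rose by 0.40 on the log2 scale (adjusted p = 0.045), not at its other probe (0.20), and its call was lost without any 1 of 5 arrays, shCON replicate 3 being the exception (adjusted p = 0.063 to 0.14), and without a filter on dim probes (adjusted p = 0.10).

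Of 11 tested regulators of NRF2, 5 rose, 0 fell and 6 did not pass. The 45.5% called lie near the 43.8% of all genes, of which 23.1% were higher and 20.8% lower. KEAP1, the inhibitor, had a log2 signal of 8.71, 8.53 and 8.70 in shCypB, against 8.02, 8.16 and 8.20 in shCON, and rose 1.44-fold (adjusted p = 0.0058), with 1.51-fold at its other tested probe. MAFF, a small MAF partner, rose 2.18-fold (log2 change 1.12, against 0.66 without background correction, adjusted p = 0.0058), BTRC, which recognises NRF2 for a second ubiquitin ligase, by 0.59 on the log2 scale (adjusted p = 0.028) and DPP3, which binds KEAP1, 1.41-fold (adjusted p = 0.0041), with 1 of its 3 tested probes not passing (adjusted p = 0.058). The call of BTRC was lost without shCypB replicate 1 (0.47), shCypB replicate 3 (0.54) or shCON replicate 1 (0.48), with adjusted p = 0.080 to 0.093, and without a filter on dim probes (adjusted p = 0.072).

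**Figure D3:**
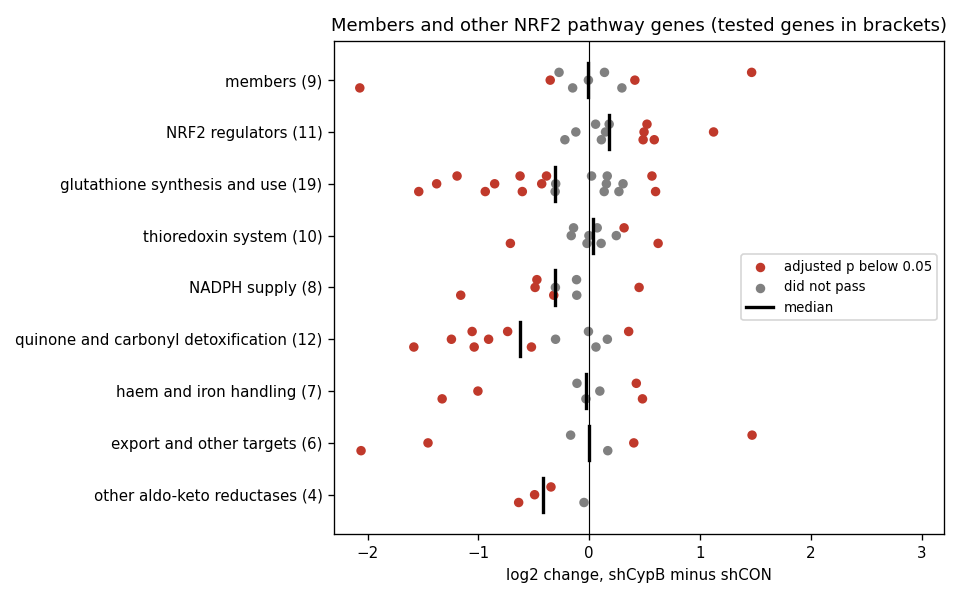
Log2 change (shCypB minus shCON, horizontal axis) of each tested gene in the member list and in 8 other lists, with the number of tested genes in brackets; red points have an adjusted p below 0.05, grey points did not pass, and black bars are list medians. The detoxification list has a median of -0.63, and the members spread from -2.07 to 1.47 around a median of -0.01.

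**Figure D4:**
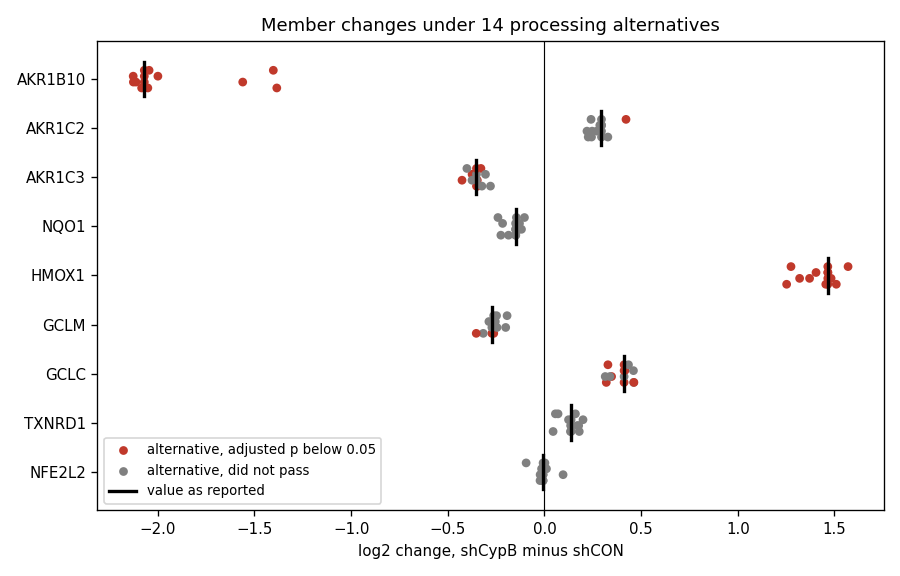
Log2 change of each of the 9 tested members (shCypB minus shCON, horizontal axis) as reported (black bar) and under 14 processing alternatives (points, red where the adjusted p was below 0.05). AKR1B10 and HMOX1 passed under all 14, GCLC under 8, AKR1C3 under 7, GCLM under 3, AKR1C2 under 1, and NQO1, TXNRD1 and NFE2L2 under 0.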

How the data were processed

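Total RNA of 6 U251 samples was hybridised to one-colour Illumina bead arrays. Per the file headers, the deposited table holds a signal intensity per probe, linear and not normalized, and a detection p-value (in the values, steps of 1 in 770). The authors deposited a second table of processed intensity, with the program Partek per the submitters' processing notes and no stated normalization, and it served as an alternative only. Here, signals were corrected with normexp (limma 3.58.1, R 4.3.3; offset 16, background inferred from the detection p-values), quantile normalized and put on the log2 scale. Probes with detection p below 0.05 on at least 3 arrays (17608) were fitted with lmFit and eBayes, group as the only term, and adjusted by Benjamini-Hochberg at 0.05. The number of arrays limits the precision.

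A gene was its brightest tested probe. Symbols came from the platform annotation (30113 probes with 1 symbol, 8 with several, 17110 not listed), updated by Entrez identifier to RefSeq of GRCh38.p14. No listed probe was found for 10 of the 111 other pathway genes, which are not analysed here. A fold is a bound where a group is undetected on all its arrays (floors 5.12 to 5.29 on the log2 scale). The genes named are the 10 members, PPIB, the markers, and per list up to 4 called genes with the greatest changes. Members and lists were chosen with earlier results of these data known. Nothing in the labels says that replicates with the same number were handled together. Alternatives changed the background step, the normalization, the filter, the probe used, the replicate block and the arrays included.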

Additional observations from a re-analysis of the deposited data

How the results depend on the processing

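AKR1B10 and HMOX1 kept their direction and passed under all 14 alternatives (log2 changes -2.13 to -1.38 and 1.25 to 1.57). The count of called members was 4 of 9. It was 5 without background correction and with probes detected below 0.01 on all arrays (GCLM being added), 2 without a filter on dim probes, where 47231 probes share the adjustment, and 2 to 4 when 1 array was left out, the calls of AKR1C3 and GCLC being those lost and AKR1C2 and GCLM gaining a call without shCON replicates 1 and 2. NFE2L2, which did not pass under any alternative, changed sign in the authors' processed intensity (0.0024), without shCypB replicate 3 (0.010) and without shCON replicate 3 (0.096), its range with 1 array left out being -0.095 to 0.096. The other pathway genes called numbered 43 of 77, 37 to 47 under the alternatives that keep all arrays and 34 to 41 when 1 array was left out. Probes called numbered 6775, then 5606 to 7587 and 5196 to 6172. With a replicate block 3 members, 37 other pathway genes and 5786 probes were called, AKR1C3 being the member lost (adjusted p = 0.052). The block also ended the calls of BTRC (0.060), AKR1C4 (0.070), PRDX6 (0.073) and FECH (0.052). Among the members and named pathway genes no other call was lost under it. Same-numbered arrays did not deviate together (correlations of deviations from the group means -0.098, -0.11 and 0.0095), so the numbers were not taken as pairs. Dim probes limit AKR1C1 and 5 of the 6 AKR1C2 probes, whose signals were at background, and the fold of AKR1B10, whose shCypB signals were little above it.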
